A study of Mus musculus with 6 samples.

Results

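The miR-28, miR-151 and miR-708 family was described in the livers of mice fed a normal diet (NC) and of MAFLD mice. Its members were taken by name, namely mmu-miR-28a-5p, mmu-miR-28a-3p, mmu-miR-28c, mmu-miR-151-5p, mmu-miR-151-3p, mmu-miR-708-5p and mmu-miR-708-3p (mmu for mouse, left out from here on), and all 7 were among the 1546 mature miRNAs listed for these livers. The NC group was made up of C57BL/6 mice on the normal diet, and the MAFLD group of C57BL/6 mice made steatotic by a high-fat diet. Per the study's methods the mice were male and 8 weeks old at the start, and 6 mice per diet were fed for 16 weeks. No gene was edited and no drug was given in either group. Whole liver RNA was read by small RNA sequencing in 3 NC and 3 MAFLD libraries, so that a fall in the number of cells of a type and a fall in the RNA per cell cannot be told apart. The labels give each library a number but do not say which mouse it came from, and p-values measure only the spread between these libraries, which may be technical. The words NC livers and MAFLD livers below stand for these libraries and not for a known number of animals.

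A miRNA is cut from an RNA hairpin as 2 short strands, the 5p arm and the 3p arm. The strand that is loaded into an Argonaute protein lowers the output of mRNAs that pair with its seed, which is bases 2 to 8. The miR-28 family is known for its origin in LINE-2 transposable elements, and its hairpins lie within introns of protein-coding genes. Mir151 lies in the gene of focal adhesion kinase and has been studied in liver cancer cells. Mir708 lies in the gene of a teneurin and is known as a miRNA of the stress response of the endoplasmic reticulum. Mir28a has been studied in lymphocytes and in tumours.

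In the mouse reference GRCm38 (GENCODE M21), Mir28a (chr16:24827855-24827940, plus strand) lies in intron 8 of Lpp, which encodes a LIM domain protein of cell adhesions. Mir151 (chr15:73254815-73254882, minus strand) lies in intron 22 of Ptk2, the gene of focal adhesion kinase, and the antisense gene 1700085D07Rik overlaps it on the other strand. Mir708 (chr7:96249424-96249532, plus strand) lies in intron 1 of Tenm4, which encodes a teneurin. Mir28c (chr15:53614205-53614279, minus strand) lies in intron 4 of Samd12. All 4 hairpins have the strand of the gene around them. Introns were numbered in the longest coding transcript that spans the hairpin.

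Of the 7 members, 4 matched a mature sequence in the RefSeq table of GRCm38.p6. They are shown with the seed in capitals, because the 5p arms of Mir28a and Mir708 carry the same seed while the 3p arms do not.
miR-28a-5p: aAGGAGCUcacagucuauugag
miR-708-5p: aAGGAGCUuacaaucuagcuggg
miR-28a-3p: cACUAGAUugugagcugcugga
miR-708-3p: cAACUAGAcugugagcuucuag
The seed AGGAGCU was held by these 2 miRNAs and by no other among the 1312 listed miRNAs with a RefSeq sequence. MiR-28c and both strands of miR-151 had no such sequence, so their seeds were not compared. Aligned from the 5′ end, miR-28a-5p and miR-708-5p were identical at 16 of 22 positions. The 3p arms were most alike with a shift of 1 base, at 17 of 21 positions, and their seeds are not the same. Neither 3p seed was found in another listed miRNA with a RefSeq sequence.

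Strands of different genes in the family are also complementary in part. The longest stretch of miR-28a-5p that is complementary to miR-708-3p, without G:U pairs, has 13 bases and starts at base 5 of both. It is shown in capitals.
miR-28a-5p: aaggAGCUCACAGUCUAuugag
miR-708-3p: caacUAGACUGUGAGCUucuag
Between miR-28a-5p and its own partner strand miR-28a-3p the longest such stretch has 8 bases. Within Mir708 it has 5 bases.

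The family took a small part of the miRNA reads of these livers. The values are CPM, that is, the reads of a miRNA per 1000000 reads on all listed miRNAs of its library. The 6 members, without miR-28c whose reads equal those of miR-28a-5p, summed to 389, 365 and 465 CPM in the NC livers and to 436, 418 and 422 CPM in the MAFLD livers. This sum averaged 407 ± 52.2 CPM (SD, n = 3) for the NC group and 425 ± 9.46 CPM (SD, n = 3) for the MAFLD group, and the groups overlapped. The sum differed by 0.07 on the log2 scale, less than the spread between the libraries (pooled SD 0.13). With median-ratio scaling, which brings the typical miRNA to about the same level in both groups, this difference was −0.39.

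While the sums were close on the CPM scale, the make-up of the family differed between libraries. MiR-151-3p was the most abundant member in each library, at 75.9%, 71.9% and 55.1% of the family reads in the NC livers and 54.3%, 66.6% and 53.8% in the MAFLD livers. MiR-28a-3p and miR-28a-5p (with miR-28c) together held 15.1%, 16.2% and 32.2% in the NC livers and 32.4%, 25.1% and 34.3% in the MAFLD livers. NC replicate 3 was thus within the range of the MAFLD livers in both shares. The arms of Mir708 held 5.14%, 6.63% and 4.34% in the NC livers and 1.89%, 2.45% and 3.09% in the MAFLD livers. Here each NC liver was above each MAFLD liver. This share rests nearly wholly on the miR-708-3p reads given below, so it is no separate result. How often shares of other miRNAs differ so was not computed.

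**Figure D1:**
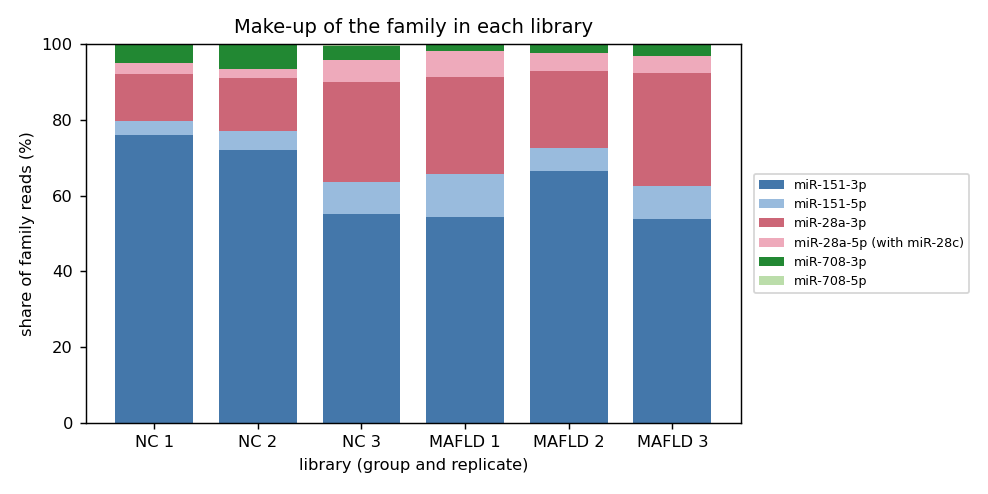
Share of the family reads on each member (y axis, %) in each of the 6 libraries (x axis), with miR-28c counted once through miR-28a-5p. MiR-151-3p took between 53.8% and 75.9%, and the Mir708 part was between 1.89% and 3.09% in the MAFLD libraries and between 4.34% and 6.63% in the NC libraries.

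The libraries held between 1336935 and 4685712 reads on miRNAs, and a level of 3 reads, the smallest taken as measurable, lay between 0.640 and 2.24 CPM. The tissue label was met by the hepatocyte list (miR-122-5p, miR-192-5p, miR-194-5p and miR-148a-3p). The list summed to between 643687 and 816289 CPM, most of it miR-148a-3p. MiR-122-5p alone was at 42159, 54430 and 85150 CPM in the NC livers and at 70527, 55196 and 67758 CPM in the MAFLD livers. NC replicates 1 and 2 stood apart from the other libraries. Their neural list of 5 miRNAs, led by miR-9-5p, summed to 366 and 575 CPM, against 9.72 CPM in NC replicate 3 and 5.34 to 15.6 CPM in the MAFLD livers. MiR-148a-3p took 71.4% and 63.3% of their reads, against 48.5% in NC replicate 3 and 46.8% to 56.7% in the MAFLD livers. The endothelial pair (both arms of miR-126a) summed to 4710 to 6587 CPM in the NC livers, with the highest value in NC replicate 3, and to 7659 to 10155 CPM in the MAFLD livers. The stellate and mesenchymal list of 5 summed to 12612 to 30033 CPM in NC and to 19775 to 26950 CPM in MAFLD livers, the blood and immune list of 6 to 737 to 1199 CPM and to 547 to 1131 CPM, the biliary list of 3 to 184 to 839 CPM and to 237 to 397 CPM, and the muscle list of 3 to 51.4 to 241 CPM and to 37.1 to 229 CPM. No listed marker was at 0 in all libraries.

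The NC and MAFLD livers were compared with limma on log2(CPM + 1), over 501 miRNAs whose mean reached 1 CPM, with Benjamini-Hochberg adjustment over all of them. MiR-708-5p was below this level, so that 6 members were tested, of which miR-28a-5p and miR-28c have the same values and count as 1. Of the 5 distinct members, 0 had an adjusted p under 0.05 and 0 had an unadjusted p under 0.05, where 0.2% and 18% of the 501 miRNAs did. On whole reads recovered from the CPM steps, edgeR called 0 members at an adjusted p under 0.05 (0.2% of all) and 1, miR-708-3p, at an unadjusted p under 0.05 (17.4% of all). DESeq2 called 1 member, again miR-708-3p, at both (5.59% and 16.6% of all). For 1 of the 5, miR-708-3p, no value of one group lay within the other, against 19.4% of the 501. The median log2 fold change of the 5 was 0.65, with 3 above 0 and 2 below, and that of the 501 miRNAs was 0.43. This median of all miRNAs was 0.044 with median-ratio scaling, so changes are also given relative to it. On the CPM scale the median was 0.56 among miRNAs that averaged 10 CPM or more, as the 5 members did. The offsets from 0.43 given below are thus not matched for abundance. At an unadjusted p under 0.05, 67 of the 501 miRNAs were higher and 23 lower in MAFLD livers with CPM, while median-ratio scaling gave 36 higher and 45 lower.

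MiR-708-3p, the 3p strand of the Tenm4 intron, had the log2 fold change farthest from 0 among the members with all libraries kept. On the CPM scale this order did not hold without NC replicate 3, where both arms of miR-28a and miR-151-5p were farther from 0, nor without MAFLD replicate 2, where miR-151-5p was. MiR-708-3p was read 50, 38 and 24 times in the NC livers and 22, 48 and 20 times in the MAFLD livers. This is 19.6, 24.2 and 18.0 CPM in the NC livers and 8.25, 10.2 and 13.0 CPM in the MAFLD livers. Each MAFLD liver was below each NC liver, as for 4.19% of the 501 miRNAs. The nearest values were those of NC replicate 3 (95% Wilson interval 12.1 to 26.7 CPM) and MAFLD replicate 3 (8.44 to 20.1 CPM), whose counting intervals overlapped. These intervals cover counting error only.

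MiR-708-3p averaged 20.6 ± 3.24 CPM (SD, n = 3) in NC and 10.5 ± 2.40 CPM (SD, n = 3) in MAFLD livers. On the log2(CPM + 1) scale limma gave a fold change of −0.92 (standard error, SE, 0.46, 95% interval −1.89 to 0.06, unadjusted p = 0.0634, adjusted p = 0.299). Relative to the median of all 501 miRNAs it was −1.35. With median-ratio scaling it was −1.35 (adjusted p = 0.128 from limma), or −1.40 relative to the median of that scaling. DESeq2 on the recovered reads gave −1.51 with an adjusted p of 0.0318, where 4.19% of the 501 miRNAs were called lower. EdgeR on the same reads gave −1.45 with an adjusted p of 0.111. With median-ratio scaling and no NC replicate 3, a fit added after the data were seen, limma gave −1.67 (adjusted p = 0.0178), where 6.19% were called lower. The direction was the same in all 18 alternatives, but the limma call on CPM was not past the threshold.

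In the NC livers 1, 2 and 3 the neural list summed to 366, 575 and 9.72 CPM, beside 19.6, 24.2 and 18.0 CPM of miR-708-3p. The liver with the highest neural sum thus also had the highest level of this strand. NC replicate 3 had a neural sum within the range of the MAFLD livers (5.34 to 15.6 CPM). Its level of miR-708-3p was near that of NC replicate 1 and above each MAFLD liver (8.25 to 13.0 CPM). The part of the neural list in the result was not tested. Without NC replicates 1 and 2 limma gave −0.74 with an adjusted p of 0.860, where the single NC library left is assumed to vary like the MAFLD libraries.

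MiR-708-5p, the other strand of the hairpin and the one with the seed of miR-28a-5p, was hardly read. There were 1, 0 and 3 reads in the NC livers and 0 reads in each MAFLD liver. The level in NC replicate 3, 2.24 CPM, was at the limit of 3 reads taken as measurable, and no fold was computed. In the MAFLD livers this limit of 3 reads lay at 1.13, 0.640 and 1.95 CPM, and the upper bound of the 95% Wilson interval of 0 reads, a different rule, at 1.44, 0.820 and 2.50 CPM. The 3p arm thus held 96.6% (95% Wilson interval 91.5% to 98.7%) of the 116 Mir708 reads of the NC livers and 100% (95.9% to 100%) of the 90 of the MAFLD livers. The limit of 3 reads taken as measurable stands for a 5p share of 3.33% of these 90 reads. The Wilson interval allows a somewhat larger 5p share. The Wilson intervals of the groups overlapped. They pool the reads of all libraries of a group and leave out the spread between livers. A difference in the use of the arms was not tested, and so few 5p reads could not decide it.

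**Figure D2:**
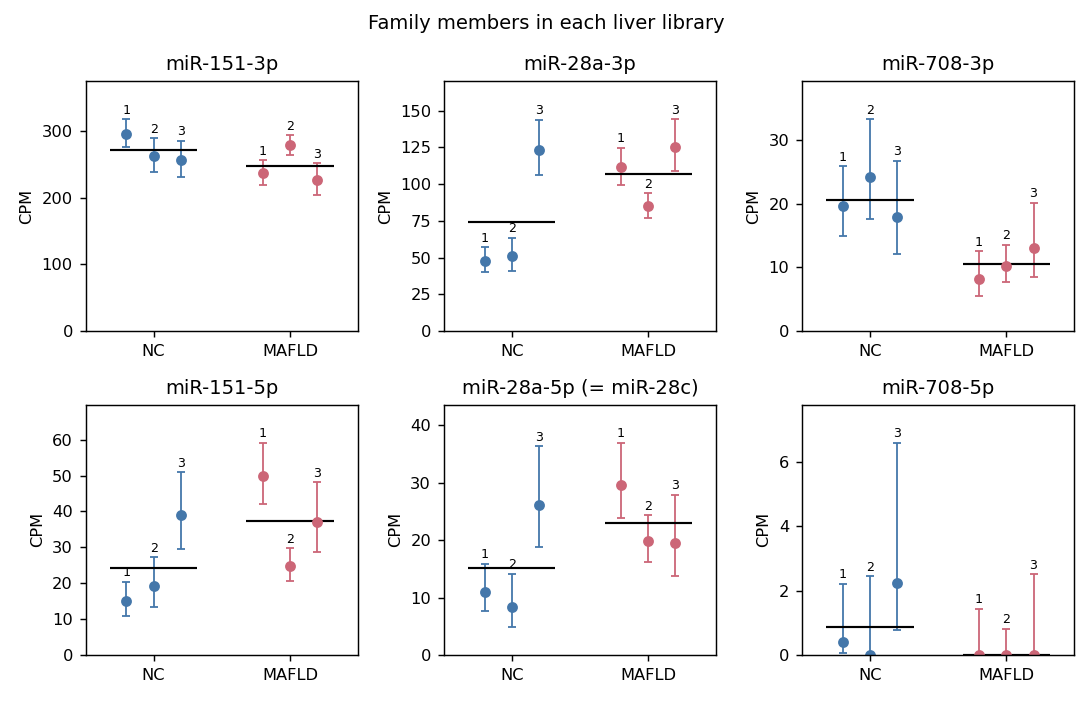
CPM (y axes, each from 0) of the 6 distinct members in the 3 NC and the 3 MAFLD libraries, where a number gives the replicate, a bar the 95% Wilson interval of counting error and a black line the mean of the group. MiR-708-3p did not overlap between the groups, and NC replicate 3 was with the MAFLD livers for both arms of miR-28a and for miR-151-5p.

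MiR-28a-3p, the more abundant strand of the Lpp intron, was at 47.9, 51.0 and 123 CPM in the NC livers and at 111, 84.9 and 125 CPM in the MAFLD livers. NC replicates 1 and 2 were below all MAFLD livers, while NC replicate 3 was above the MAFLD livers 1 and 2. Means were 74.1 ± 42.8 CPM (SD, n = 3) in NC and 107 ± 20.4 CPM (SD, n = 3) in MAFLD livers. Limma put its log2 fold change at 0.65 (SE 0.45, 95% interval −0.30 to 1.60, adjusted p = 0.435), or 0.22 relative to the median of all miRNAs. With median-ratio scaling it was 0.19 (adjusted p = 0.752 from limma).

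This value rested on the NC libraries used. Without NC replicate 3 the log2 fold change of miR-28a-3p was 1.08 with an adjusted p of 0.0309 from limma. It was then 1 of 114 miRNAs called, or 22.8% of those tested. Without NC replicates 1 and 2, the libraries with the high neural sum and the high share of miR-148a-3p, it was −0.22 (adjusted p = 0.999 from limma). The part of these features in the result was not tested.

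MiR-28a-5p, the strand with the seed AGGAGCU shown above, followed the same pattern at a lower level. It was at 11.0, 8.28 and 26.2 CPM in the NC livers and at 29.6, 19.8 and 19.5 CPM in the MAFLD livers, from between 13 and 93 reads per library. Again NC replicates 1 and 2 were below all MAFLD livers and NC replicate 3 was among them. The means were 15.1 ± 9.65 CPM (SD, n = 3) and 23.0 ± 5.74 CPM (SD, n = 3), and limma gave a log2 fold change of 0.71 (SE 0.51, 95% interval −0.37 to 1.79, adjusted p = 0.449). With median-ratio scaling it was 0.27 (adjusted p = 0.761 from limma). Without NC replicate 3 it was 1.16, and without NC replicates 1 and 2 it was −0.20. MiR-28c, the product of the Samd12 intron, had the same number of reads as miR-28a-5p in all 6 libraries. The 2 names therefore give 1 measurement, and the reads cannot be assigned to Mir28a or Mir28c.

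MiR-151-3p, the more abundant strand of the Ptk2 intron, had the log2 fold change nearest to 0 of the members tested on the CPM scale, but not with median-ratio scaling. It was at 296, 263 and 257 CPM in the NC livers and at 237, 278 and 227 CPM in the MAFLD livers, from 343 to 1304 reads per library. The groups overlapped, as MAFLD replicate 2 was above NC replicates 2 and 3. Its means were 272 ± 21.1 CPM (SD, n = 3) and 247 ± 27.3 CPM (SD, n = 3), with a coefficient of variation of 7.77% and 11.1%, against 57.7% and 19.1% for miR-28a-3p. In limma its log2 fold change came to −0.14 (SE 0.34, adjusted p = 0.859). Its 95% interval ran from −0.87 to 0.59, so that a change of either sign within these bounds was not separated from 0.

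As most miRNAs had a positive fold change on the CPM scale, miR-151-3p was at −0.57 relative to the median of all miRNAs. With median-ratio scaling its log2 fold change was −0.60 (unadjusted p = 0.0777, adjusted p = 0.323 from limma). With NC replicate 3 also left out it was −0.88 (adjusted p = 0.0709 from limma), which was chosen after the data were seen.

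MiR-151-5p, the other strand of the hairpin, was at 14.9, 19.1 and 38.9 CPM in the NC livers and at 49.9, 24.8 and 37.1 CPM in the MAFLD livers. It stood with both strands of miR-28a rather than with its partner miR-151-3p: NC replicates 1 and 2 were below all MAFLD livers and NC replicate 3 was second highest. The means were 24.3 ± 12.8 CPM (SD, n = 3) and 37.3 ± 12.6 CPM (SD, n = 3), and limma gave a log2 fold change of 0.66 (SE 0.49, 95% interval −0.38 to 1.69, adjusted p = 0.453). With median-ratio scaling it was 0.21 (adjusted p = 0.774 from limma). Without NC replicate 3 it was 1.04 (adjusted p = 0.0891 from limma), and without NC replicates 1 and 2 it was −0.11.

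**Figure D3:**
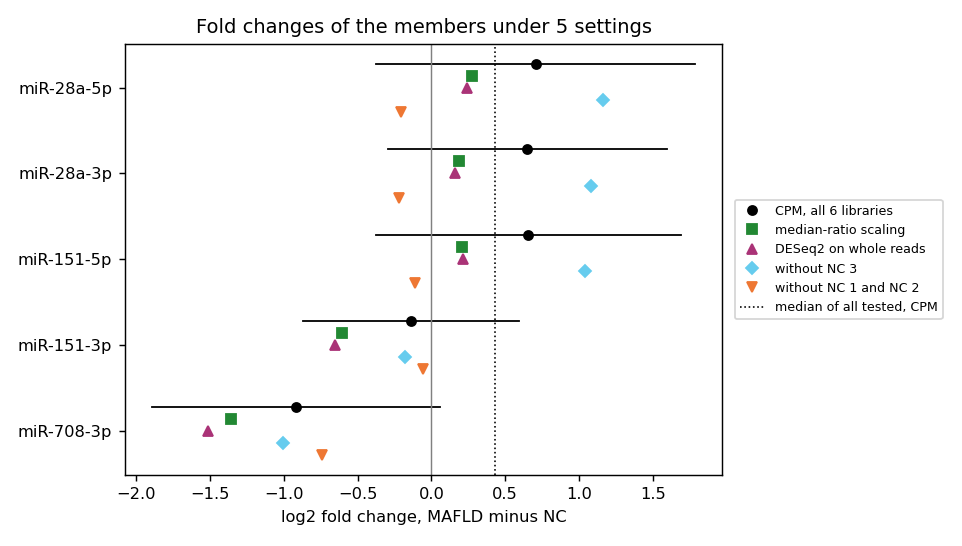
Log2 fold change of MAFLD against NC livers (x axis) for the 5 distinct members tested (y axis), with the 95% interval of the limma fit on CPM as a line and the value under 4 other settings as coloured marks. The dotted line is the median of all 501 miRNAs, 0.43. MiR-708-3p was below 0 under each setting shown, while both arms of miR-28a and miR-151-5p changed sign without NC replicates 1 and 2.

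The likeness of the members was measured as the mean absolute difference between their log2(CPM + 1) profiles over the 6 libraries, after the mean of each was removed. MiR-28a-3p was 0.19 from miR-151-5p and 0.23 from miR-28a-5p, but 0.61 from miR-151-3p. MiR-151-3p was 0.40 from miR-708-3p and 0.65 from its own partner miR-151-5p. All profiles share the depth and composition of the same libraries, so these distances are a description only. Among the 232 other miRNAs that averaged 10 CPM or more, those nearest to miR-28a-3p were miR-99b-5p (0.08), let-7j (0.10) and miR-106b-5p (0.11), where the median distance was 0.33. MiR-99b-5p was at 126, 121 and 304 CPM in the NC livers and at 288, 202 and 267 CPM in the MAFLD livers. Those nearest to miR-151-3p were miR-132-3p (0.13), miR-148a-3p (0.13) and miR-29c-5p (0.15), where the median distance was 0.56. MiR-132-3p was at 23.5, 25.5 and 20.2 CPM in the NC livers and at 20.6, 18.1 and 17.6 CPM in the MAFLD livers.

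Ratios of members within a library do not depend on how that library is scaled. They are ratios of reads and not of molecules, because strands differ in how well they are ligated and amplified. The ratio of miR-28a-3p to miR-28a-5p reads was 4.36, 6.15 and 4.71 in the NC livers and 3.76, 4.28 and 6.40 in the MAFLD livers. The groups overlapped (two-sided exact permutation test, p = 0.7). As its 5p reads cannot be assigned to Mir28a or Mir28c, this may not be the ratio of the arms of Mir28a. For Mir151 the ratio of 3p to 5p reads was 19.8, 13.7 and 6.60 in the NC livers and 4.74, 11.2 and 6.11 in the MAFLD livers. The geometric mean of the Mir151 ratio was 12.2 in NC and 6.88 in MAFLD livers, a difference of −0.82 on the log2 scale, about the spread between the NC libraries (SD 0.81, exact permutation test, p = 0.2). This difference was −0.47 without NC replicate 1 and −1.26 without NC replicate 3. The 3p arm held 95.2%, 93.2% and 86.8% of the Mir151 reads in the NC livers and 82.6%, 91.8% and 85.9% in the MAFLD livers, where NC replicates 1 and 2 were above the others.

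Between the genes, miR-151-3p was read 6.18, 5.15 and 2.08 times as often as miR-28a-3p in the NC livers and 2.12, 3.28 and 1.81 times as often in the MAFLD livers (exact permutation test, p = 0.3), a difference of −0.80 on the log2 scale. It was −0.49 without NC replicate 1 and −1.28 without NC replicate 3. With 3 libraries against 3 the smallest p of this test is 0.1, and the 3 ratios tested had adjusted p-values of 0.45 to 0.70 over the exact permutation tests. The ratio of miR-708-3p to miR-28a-3p was chosen after its values were seen and has no test. It was 0.410, 0.475 and 0.145 in the NC livers and 0.0741, 0.121 and 0.104 in the MAFLD livers, and the groups did not overlap. The ratio of miR-708-3p to miR-151-3p was chosen in the same way. It was 0.0663, 0.0922 and 0.0700 in the NC livers and 0.0349, 0.0368 and 0.0575 in the MAFLD livers, and the groups did not overlap. In this ratio NC replicate 3 stood with the other NC livers. Both ratios use the miR-708-3p reads whose CPM values did not overlap either, so they are no separate support. How often ratios of other miRNAs do not overlap was not computed.

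**Figure D4:**
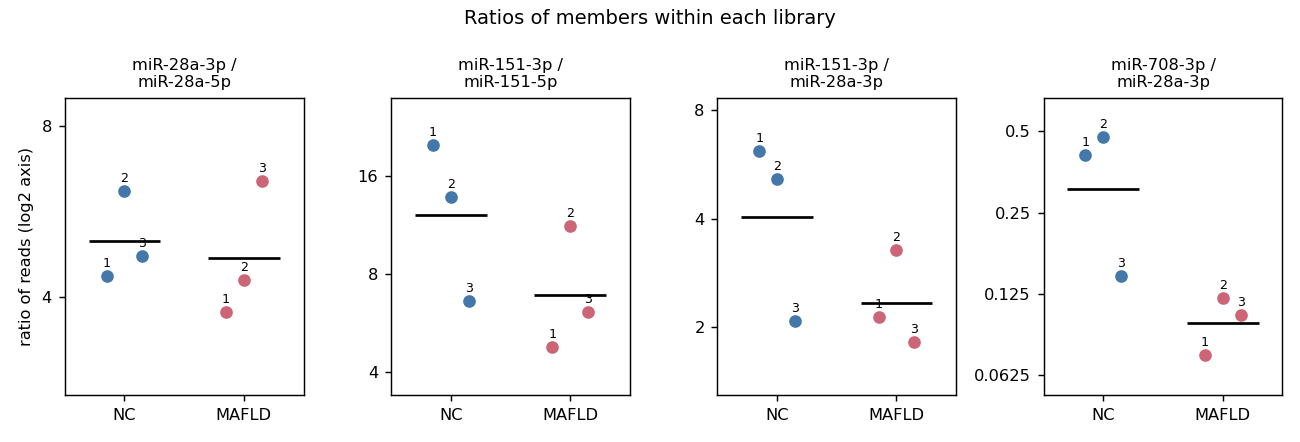
Ratio of the reads of 2 members in each library (y axes, log2 scale), where a number gives the replicate and a black line the geometric mean of the group. The ratio of miR-28a-3p to miR-28a-5p overlapped between the groups. NC replicate 3 was nearest to the MAFLD livers in the other 3 ratios, of which that of miR-708-3p to miR-28a-3p did not overlap.

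The family was set beside 24 other miRNAs that lie within protein-coding host genes, all of which were tested. Of these, 0 had an adjusted p under 0.05 (limma), while 7 were higher and 0 lower in MAFLD livers at an unadjusted p under 0.05, where 13.4% and 4.59% of the 501 miRNAs were. Their median log2 fold change was 0.73 (lowest −1.003, highest 1.76), and 22 of the 24 were above 0, as were 71.3% of the 501. The lowest p belonged to miR-149-5p of Gpc1, a heparan sulfate proteoglycan gene, at 12.5 ± 1.90 CPM (SD, n = 3) in NC and 47.4 ± 18.5 CPM (SD, n = 3) in MAFLD livers (log2 fold change 1.76, SE 0.47, limma adjusted p = 0.152). It was followed by miR-26b-5p of Ctdsp1, a phosphatase gene (1.03), by miR-15b-5p of Smc4, a condensin gene (1.35), and by miR-378a-3p of Ppargc1b, a gene of mitochondrial energy metabolism (0.93), each with an adjusted p of 0.208 (limma). Both arms of miR-28a and miR-151-5p, at 0.65 to 0.71, were near the median of this list. MiR-151-3p and miR-708-3p were below it. The list was drawn up with earlier results of these data known, so its median is not a neutral reference.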

How the data were processed

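Small RNA was sequenced in 3 NC and 3 MAFLD liver libraries, with RNA pretreated to remove modifications that hinder ligation. The authors deposited CPM values, in which every library sums to 1000000 over the 1546 miRNAs listed. The submitters' processing notes name FastQC, cutadapt, Bowtie and edgeR, without versions, and the build GRCm38. The sample protocols describe HepG2 cells, while each sample is named as mouse liver. How reads that match several miRNAs were assigned is not given in the sources used here.

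From the deposited CPM, whole reads were recovered by dividing by the smallest value of each library, and 100% of the quotients were whole to within 0.02. The depth was 1336935 to 2549598 reads in NC and 1534569 to 4685712 in MAFLD libraries.

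Groups were compared with limma 3.58.1 (R 4.3.3, eBayes with trend, two-sided) on log2(CPM + 1) for 501 miRNAs whose mean reached 1 CPM, at an adjusted p of 0.05. The added 1 CPM draws folds of scarce miRNAs towards 0. Ratios were tested by exact permutation in scipy 1.17.1. The alternatives were other pseudocounts, filters and scalings, no trend, the replicate number as a block, leaving out libraries, and edgeR 4.0.16 (called with TMM) and DESeq2 1.42.0 on the recovered reads. The methods were tested on simulated data in which only miRNAs with a small share of the reads were changed. That test cannot show how they deal with a shift in a dominant miRNA such as miR-148a-3p. Named are all members, the 3 miRNAs nearest in profile to miR-28a-3p and to miR-151-3p, and the 4 intronic miRNAs with the lowest p. Host genes of that list were taken from general knowledge. Members, lists and tests were chosen with earlier results of these data known. MiR-28b was not among the listed miRNAs. Other assays and the cell experiments were not analysed here.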

Additional observations from a re-analysis of the deposited data

How the results depend on the processing

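Directions held in all 18 alternatives for miR-151-3p (−0.88 to −0.06) and miR-708-3p (−1.67 to −0.73, adjusted p 0.0178 to 0.860). MiR-708-3p passed the threshold with DESeq2 (−1.51) and, without NC replicate 3, when median-ratio scaling was used (−1.67). This last setting, and leaving out NC replicates 1 and 2, were added after the data were seen. Without NC replicates 1 and 2, miR-28a-5p and miR-28c (−0.20), miR-28a-3p (−0.22) and miR-151-5p (−0.11) reversed. Leaving out 1 library gave 0.41 to 1.08 for miR-28a-3p, which was called without NC replicate 3. The distinct members called numbered 1 with DESeq2, 1 in the setting with median ratios and no NC replicate 3, and 0 to 1 with 1 library left out. Of all miRNAs tested, 1 was called, and 11 without the filter, 2 with median-ratio scaling, 2 without miR-148a-3p, 0 without the trend, 28 with DESeq2, 36 with median ratios and no NC replicate 3, 0 without NC replicates 1 and 2, and 0 to 114 with 1 library left out, the most without NC replicate 3. The summed family reads reversed with median-ratio scaling (−0.39), without miR-148a-3p (−0.28) and without NC replicates 1 and 2 (−0.13), and ran from −0.0018 to 0.17 with 1 library left out. The ratio of miR-28a-3p to miR-28a-5p ran from −0.32 to 0.060 on the log2 scale with 1 library left out. The causes were not tested. Same-numbered libraries did not deviate together (correlations of 0.0121, −0.0202 and −0.0459), where differently numbered ones ran from −0.163 to 0.129. No pairing by number was seen, but so few libraries cannot exclude one. With the replicate block 5 miRNAs were called, none of them a member. Few reads limit miR-708-5p, with 4 in all libraries.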
